A study of Mus musculus with 14 samples.

Results

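The transcript levels described here are those of freshly isolated satellite cells, the resident stem cells of skeletal muscle, in the 3 libraries labelled Control out of 14 in the series. The members are the 21811 protein-coding genes among the 49671 genes of the deposited count table, and they were ranked by abundance within these libraries, with no comparison between groups. The cells came from 6-month-old C57BL/6J mice, for which the series text gives 3 mice. Hind-limb, pectoral and triceps muscle was used at rest, and 1000 cells per library were sorted as positive for CXCR4 and B1-Integrin and negative for Sca1, Ter119, CD11b, CD31 and CD45. The alleles behind the word Control are not given. The gate in the series text also asks for FosGFP, a reporter of the transcription factor gene Fos, so these libraries may stand for FosGFP+ cells and not for all satellite cells. The labels do not say which mouse gave which library, so the SD over libraries may be partly technical. In a bulk library of sorted cells, fewer cells of a type and less RNA per cell cannot be told apart.

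Satellite cells lie between the muscle fibre and its basement membrane and express the paired-box factor Pax7. In undisturbed muscle they are quiescent, held there in part by Notch signals and by contact with laminin, collagen and cadherins. After injury they enter the cell cycle, and the myogenic factors Myf5, Myod1 and Myog are known for leading them towards fusion into fibres. Immediate early genes are transcribed within minutes of a stimulus, without new protein synthesis, and chaperones fold or refold proteins in the cytosol and in the endoplasmic reticulum.

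Levels are given in TPM, a relative transcript level: the read count divided by the gene's total exonic length and scaled to the same sum over protein-coding genes in each library. The counts in genes came to 5326686, 6930696 and 5458647 for libraries 1, 2 and 3, of which 95.3% to 95.8% lay in protein-coding genes. Genes took only 16.8% to 19.0% of what the counting program tallied. Alignments outside any feature took 48.6% to 53.8%, and alignments that were not unique took 28.9% to 31.8%. As a measure of even background, 1482 olfactory, vomeronasal, taste and trace-amine receptor genes were pooled, and their level was 2.64, 2.89 and 3.26 TPM. Whether some of these receptor genes are expressed in satellite cells was not tested. A mean of 10 TPM or more, above that background, was used to count a gene as present. That level was reached by 9649 genes (44.2% of all), 8020 of them in every library, and by 100 of the 1482 receptor genes (6.75%). At 100 TPM or more there were 1469 genes (6.74% of all) and none of those receptor genes, and 115 genes reached 1000 TPM.

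The libraries ranked genes in nearly the same order. Across the 9649 genes, Spearman's rho between libraries was 0.8933 to 0.9122, as a description over genes that are not independent replicates. Each pair of libraries shared 17 of its 20 most abundant genes and 88 to 92 of its 100 most abundant. The coefficient of variation over the 3 libraries had a median of 19.7% for genes of 10 to 100 TPM, 11.0% for genes of 100 to 1000 TPM and 9.39% above that. Counting error alone would give medians of 7.46%, 3.17% and 1.13%. Neighbours in the rank order therefore often cannot be told apart: of the 19 neighbouring pairs among the 20 most abundant genes, 6 had the same order in every library and 5 had ranges that did not overlap.

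The gate and the label were checked against the marker genes first. Pax7, the factor that defines satellite cells, stood at 33.8, 45.2 and 40.3 TPM, a mean of 39.8 ± 5.72 (SD, n = 3) and rank 3663. It lay above the receptor-gene background in every library but far down the order. Myod1, the myogenic basic helix-loop-helix factor linked to activation, was much higher at 3371, 2444 and 2597 TPM, which is rank 35. Myf5, its relative that is also found in quiescent cells, had 377, 389.7 and 272 TPM (mean 346 ± 64.5). For the surface proteins of the sort, Itgb1 stood at 614, 643 and 539 TPM and Cxcr4 at 96.1, 89.3 and 98.8 TPM. All 5 markers had 10 TPM or more in all 3 libraries. So did 8020 of all 21811 protein-coding genes, so presence alone is a weak check of the gate.

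Of 30 genes listed for satellite cell identity, 29 had 10 TPM or more in every library, beside 8020 of all 21811 protein-coding genes. The exception was the homeobox gene Meox2, with 5.44, 1.40 and 3.24 TPM. The identity list was written with earlier results of these data known, so its count does not test the identity of the cells. The 15 surface genes had the largest sum, 13504 ± 621 TPM, with a median of 443 TPM. The 6 genes listed neither as surface nor as transcription genes had a higher median, 755 TPM. Sdc4, a heparan sulphate proteoglycan that serves as an FGF co-receptor, had 5278, 4275 and 4304 TPM, and library 1 was the highest. Cd82, a tetraspanin used to sort satellite cells, held at 2359, 2406 and 2361 TPM, a mean of 2375 ± 26.6. Vcam1, an adhesion molecule of the immunoglobulin family, stood at 635 ± 84.1 TPM, and Cdh15, the M-cadherin that joins the cell to the fibre, at 443 ± 23.4 TPM. Itga7, the laminin-binding integrin chain, had 256 ± 63.9 TPM. Chodl, a C-type lectin-like membrane protein, had 599 ± 90.1 TPM and Ncam1, a neural cell adhesion molecule, 101 ± 9.93 TPM.

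Further genes of the identity list, some of them tied to the resting state in satellite cells, were spread over a wide range. Calcr, the calcitonin receptor, stood at 159, 197 and 149 TPM, with no library apart from the others. Spry1, an inhibitor of receptor tyrosine kinase signalling, had 507 ± 36.2 TPM, and Cd34, a sialomucin, 133 ± 32.7 TPM. The Notch targets Heyl and Hey1 stood at 335 ± 58.1 and 119.7 ± 17.6 TPM. Chrdl2, a secreted BMP antagonist, had 322, 418 and 558 TPM. Apoe, a lipid carrier, had 3087 ± 152 TPM, Cav1, a coat protein of caveolae, 1002 ± 198 TPM and Des, the muscle intermediate filament, 1358 ± 314 TPM.

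Other factors of the list were of low abundance. Six4, a homeobox factor, had 22.5 ± 4.58 TPM. Pax3, the paralogue of Pax7, stood at 18.2, 13.4 and 19.0 TPM, so Pax7 lay above it in every library. Met, the receptor of hepatocyte growth factor, had 62.3 ± 8.22 TPM, and Sdc3, another syndecan, had 34.4, 41.2 and 66.2 TPM with library 3 the highest.

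**Figure D1:**
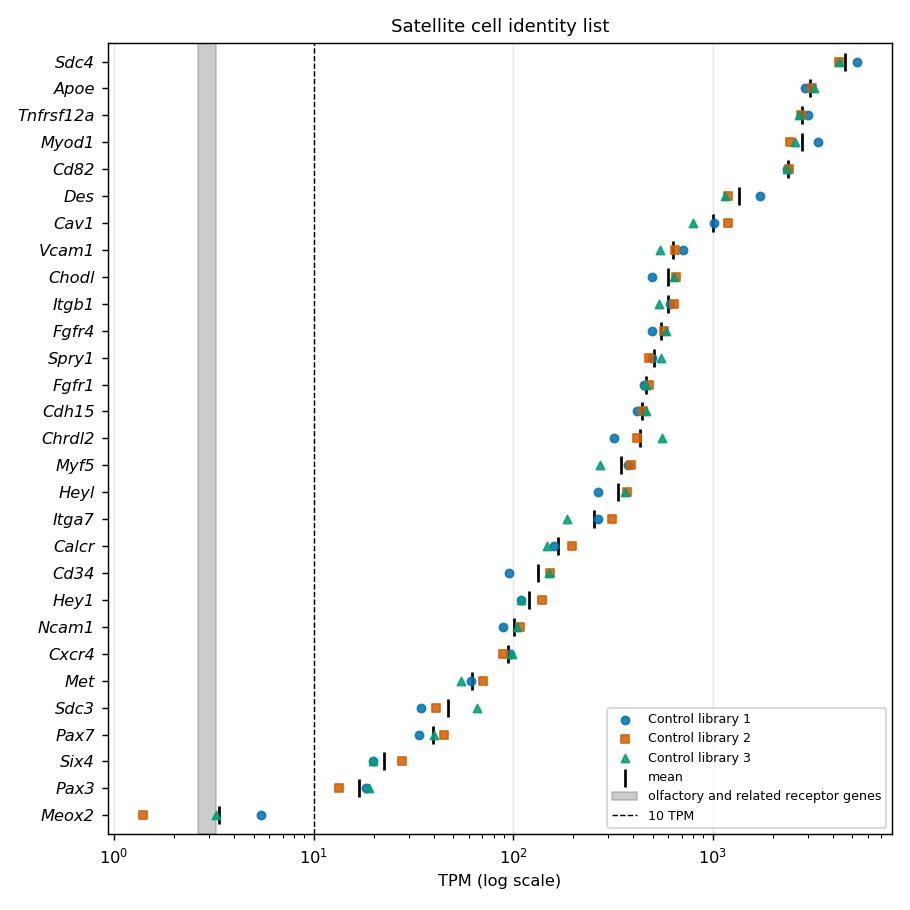
Levels of 29 of the 30 satellite cell identity genes, in TPM on a log axis, with 1 symbol per Control library and a bar at the mean. The grey band is the pooled level of olfactory and related receptor genes (2.64 to 3.26 TPM) and the dashed line marks 10 TPM. Meox2 is the only gene of the list on the left of that line, and Pax7 lies in the lower part at 39.8 TPM.

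Among all protein-coding genes, chaperones, immediate early genes and a small set of single abundant messages led the order. The 20 most abundant genes took 21.6%, 18.1% and 19.0% of the TPM (mean 19.6% ± 1.79, n = 3), and the 100 most abundant took 35.5% ± 1.89. The first by value, Gm10800, is a predicted gene model on chromosome 2 (GRCm38 chr2:98666547-98667301) with 63014, 35159 and 36575 TPM, highest in library 1. Its neighbour Gm10801 (chr2:98662237-98664083) had 17708, 10016 and 9961 TPM, again highest in library 1. Both are unnamed models with no known product, and 29.95% and 17.1% of their 50-base words also occur in transcripts of other genes. Predicted models together took 9.08%, 5.32% and 5.49% of the TPM, and without them the 20 most abundant genes took 15.6% ± 0.408. Whether these models measure transcripts was not tested.

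Hspa5, the chaperone of the endoplasmic reticulum also known as BiP, was the most abundant gene with a known product (chr2:34771970-34777547). It had 17791, 17454 and 14920 TPM (mean 16722 ± 1569). Gal, which encodes the neuropeptide galanin (chr19:3409915-3414544), came next with 12743, 12619 and 12699 TPM. Its SD of 62.6 TPM is the smallest among the 20 genes. Gpx3, the secreted glutathione peroxidase, had 11281, 12562 and 12106 TPM (chr11:54902453-54910377). Mt1, a metallothionein that binds zinc and copper, had 6653, 3969 and 4986 TPM, a wider range. Sqstm1, an adaptor of selective autophagy, had 5899 ± 617 TPM and Erfe, the erythroid hormone erythroferrone, 4202 ± 379 TPM. Gsn, which severs actin filaments, had 4097 ± 194 TPM, and mt-Cytb, the mitochondrial cytochrome b, 4396 ± 453 TPM.

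**Figure D2:**
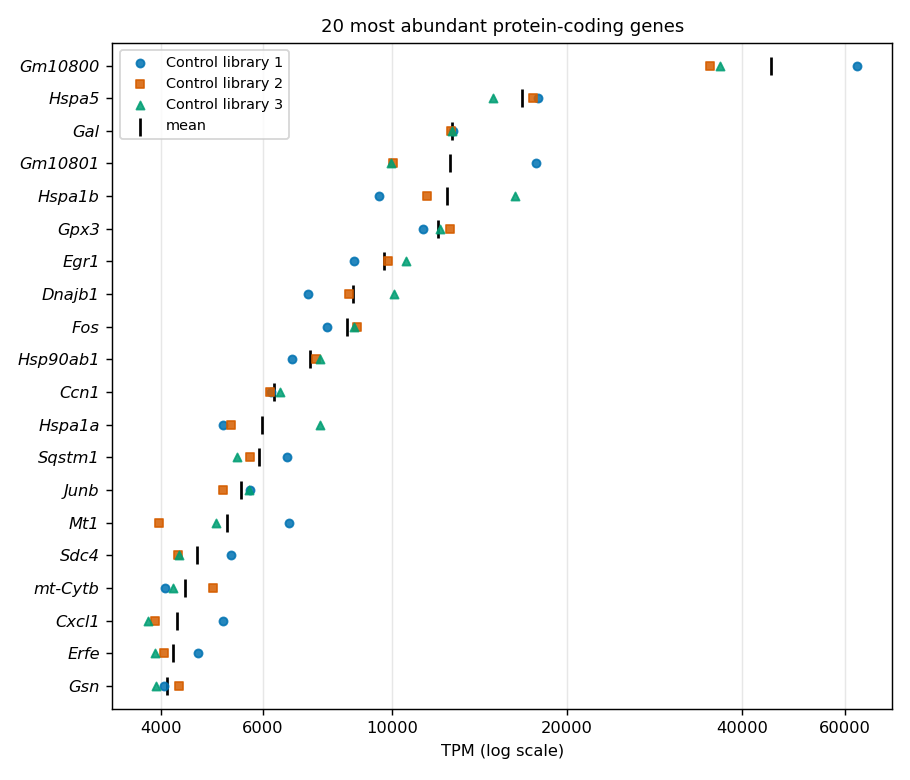
The 20 most abundant protein-coding genes, in TPM on a log axis, with 1 symbol per Control library and a bar at the mean. Gm10800, Gm10801, Hspa1b and Mt1 are spread over a wide range, whereas the 3 values of Gal lie on top of each other near 12687 TPM.

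The list of chaperones was written with earlier results of these data known, so its counts do not test chaperones as a class. All 24 had at least 100 TPM, beside 6.74% of all protein-coding genes, and 13 had at least 1000 TPM. Together they took 6.57%, 6.91% and 7.82% of the TPM in libraries 1, 2 and 3. The inducible cytosolic Hsp70 genes Hspa1b and Hspa1a had 12418 ± 3499 and 5969 ± 1349 TPM. Both were highest in library 3, with 16289 and 7525 TPM, and lowest in library 1, with 9480 and 5110 TPM. Dnajb1, the Hsp40 partner of Hsp70, followed the same order with 7180, 8423 and 10094 TPM. Hsph1, a nucleotide exchange factor of Hsp70, had 1579, 1760 and 2236 TPM. Bag3, a co-chaperone of Hsp70, spread further, with 864, 2360 and 3026 TPM. Hsp90ab1, the constitutive cytosolic Hsp90, had 7219 ± 430.5 TPM and Hspb1, a small heat shock protein, 3498 ± 674 TPM.

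All 8 chaperones of the endoplasmic reticulum on the list had the reverse order of libraries, highest in library 1 and lowest in library 3, which was seen in the data and not tested. Calr, the calcium-binding lectin chaperone calreticulin, had 1879, 1399 and 1357 TPM, and Hsp90b1, the reticulum's own Hsp90, had 1527, 1251 and 1010 TPM. Pdia3, a disulphide isomerase, had 1113, 1072 and 933 TPM. The others besides Hspa5 were the isomerases P4hb, Pdia6 and Pdia4, with 899 ± 87.4, 521 ± 103 and 306 ± 75.4 TPM, and the lectin chaperone Canx, with 329 ± 11.8 TPM. Serpinh1, a collagen chaperone of the reticulum given below with the secreted factors, did not follow and was lowest in library 1.

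The levels of the Hsp70 pair are uncertain. Of the 50-base words of Hspa1b and Hspa1a, 62.3% and 60.35% also occur in a transcript of another gene, and reads from such words need not align uniquely. How many reads were lost was not measured. Their regions before the transcription start are as close to each other, and both are shown with that of Fos. The sequences are from RefSeq (GRCm38.p6), cover the 250 bases before the start and read 5′ to 3′ on the gene's strand. Capitals mark TATAAA, the heat shock element core GAANNTTC or TTCNNGAA, and CCAAT, searched on both strands, so that ATTGG is CCAAT read from the other strand.
Fos, chr12:85473640-85473889, plus strand: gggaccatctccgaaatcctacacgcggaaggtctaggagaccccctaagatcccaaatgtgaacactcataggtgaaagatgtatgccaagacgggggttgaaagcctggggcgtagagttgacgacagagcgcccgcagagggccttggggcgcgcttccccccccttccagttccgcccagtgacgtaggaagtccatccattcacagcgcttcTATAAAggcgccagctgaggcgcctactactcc
Hspa1a, chr17:34972157-34972406, minus strand: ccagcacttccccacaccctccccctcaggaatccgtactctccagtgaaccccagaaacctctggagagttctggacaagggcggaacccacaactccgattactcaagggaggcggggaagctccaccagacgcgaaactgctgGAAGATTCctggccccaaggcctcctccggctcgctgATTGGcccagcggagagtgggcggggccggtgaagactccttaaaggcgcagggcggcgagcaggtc
Hspa1b, chr17:34959239-34959488, minus strand: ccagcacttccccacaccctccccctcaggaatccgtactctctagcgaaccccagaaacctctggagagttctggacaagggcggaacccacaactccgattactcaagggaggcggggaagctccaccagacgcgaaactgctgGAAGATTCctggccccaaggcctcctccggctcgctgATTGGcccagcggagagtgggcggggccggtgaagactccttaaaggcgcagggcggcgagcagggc

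The Hsp70 windows differ at 3 of 250 positions. Each holds GAAGATTC starting 104 bases before the transcription start and ATTGG starting 67 bases before it, and Fos holds TATAAA starting 33 bases before its start. A window was found for 16454 protein-coding genes. The heat shock core was in 12.0% of all those windows and in 6 of 19 windows of listed chaperones (31.6%). CCAAT was in 36.0% of all windows and in 12 of the 19 (63.2%). TATAAA was in 11.9% of all windows, in 0 of the 19 chaperone windows and in 4 of 21 windows of immediate early genes (19.0%). The AP-1 element TGANTCA was in 6.10% of all windows and in 0 of those 21, and the cAMP response element TGACGTCA in 2.08% and in 2 of 21 (9.52%). These matches are a description of letters in a short window and not of bound sites.

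The list of immediate early genes was also written with earlier results of these data known. All 25 were present, 23 of them at 100 TPM or more, beside 44.2% and 6.74% of all protein-coding genes. They took 5.61%, 5.87% and 5.98% of the TPM, so the libraries differed little. Egr1, a zinc finger factor of growth signalling, had 8602, 9831 and 10578 TPM (mean 9670 ± 998). Fos, the gene deleted in the other arm of this dataset, had 7740, 8715 and 8588 TPM (mean 8348 ± 530.1; chr12:85473890-85477273) in these Control libraries. Junb and Jun, its dimer partners, had 5497 ± 322 and 3078 ± 118 TPM. Ccn1, a matricellular protein, had 6190, 6177 and 6413 TPM. Those that limit the response were present too: Btg2, an antiproliferative factor, had 2798 ± 262 TPM, Zfp36, which destabilises AU-rich messages, 2445 ± 169 TPM and Dusp1, a MAP kinase phosphatase, 2260 ± 264 TPM. Ier2 had 2574 ± 174 TPM. The lowest of the list were Klf2, with 70.5 ± 16.7 TPM, and Egr3, with 13.3, 10.4 and 7.89 TPM, which lay under 10 TPM in library 3.

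The genes at the top of the order were short. The 100 most abundant had a median span in the genome of 5.27 kb and a median of 4 exons in the longest transcript. Genes at 10 TPM or more had 23.1 kb and 8 exons, and all protein-coding genes had 17.5 kb and 6 exons. The immediate early genes had 3.97 kb and 3 exons, and 6 of the 20 most abundant genes had a single exon. Length enters the unit itself: without length correction, 15 of the 20 most abundant genes stayed among the first 20.

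Of 649 listed transcription factors, 293 had 10 TPM or more (45.1%) and 17 had 1000 TPM or more. At 100 TPM or more there were 72 (11.1%), beside 6.74% of all protein-coding genes. The first share is near the 44.2% of all protein-coding genes and says nothing particular about the class. Their median level was 7.80 TPM, and 199 were under the mean receptor-gene background. Together they took 7.53%, 7.52% and 7.60% of the TPM. Of the basic leucine zipper families, AP-1 was the highest: all 7 genes had 100 TPM or more, with a median of 1369 TPM, and summed to 20089 ± 223 TPM. In the C/EBP and PAR, ATF and CREB, and MAF and CNC groups 5 of 10, 4 of 20 and 5 of 13 genes had 100 TPM or more, with medians of 99.995, 45.7 and 29.4 TPM. Atf3, a stress-induced member of the ATF family, had 3341, 3594 and 3668 TPM, and Atf4, the effector of the integrated stress response, 1312, 1234 and 885 TPM with library 3 lowest. Xbp1, a factor of the unfolded protein response, had 1044 ± 48.4 TPM. Fosl1 and Jund had 1369 ± 139 and 1166 ± 194 TPM. Of their exonic bases, 57.2% and 52.6% lie under another gene's exons, and reads there can be lost or shared when strand is not kept, so these values are uncertain.

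The C/EBP family was led by Cebpb, a factor of inflammatory and myogenic signalling, with 2848, 2015 and 2328 TPM. Mafk, a small MAF partner of the CNC factors, had 1038 ± 75.0 TPM. Klf6, a Krüppel-like zinc finger factor, had 1125 ± 75.9 TPM, and Csrnp1, a nuclear protein of the immediate early type, 848 ± 79.2 TPM. Rela, the transactivating NF-kB subunit, had 933, 892 and 954 TPM. Of 10 listed NF-kB and NFAT genes, 9 had 10 TPM or more. Among 48 nuclear receptors 22 did, a share near the 44.2% of all genes. The highest nuclear receptors were Nr4a1, an orphan receptor of the immediate early type, with 1872 ± 128 TPM, and Nr1d1, the circadian repressor REV-ERB alpha, with 882 ± 31.9 TPM.

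Helix-loop-helix factors included both activators and inhibitors of myogenesis. Id3, which binds E proteins and keeps them from DNA, had 3067, 3175 and 3043 TPM (mean 3095 ± 70.0), above Myod1 in libraries 2 and 3 and below it in library 1. Msc, a repressor also known as MyoR, had 1195 ± 198 TPM, lowest in library 3 at 983 TPM. Myc, a growth regulator, had 2402, 2202 and 1974 TPM. Myog, the factor of terminal differentiation, had 446, 480.4 and 103 TPM, so library 3 stood far below the others. Mymk, the fusion protein myomaker, had 95.7, 64.5 and 20.2 TPM and was also lowest in library 3. Myf6, the remaining myogenic factor, had 5.35, 16.1 and 22.6 TPM, highest in library 3.

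Counts of genes present in developmental families stand beside the 44.2% of all protein-coding genes. For HOX genes it was 8 of 39, led by Hoxc10 with 47.4 ± 22.7 TPM, and for other homeobox genes 16 of 90, led by Tgif1, a repressor of TGF-beta signalling, with 441 ± 27.0 TPM. In the FOX family 12 of 39 were present, with Foxo1, a target of insulin signalling, first at 53.8 ± 3.81 TPM. The SOX family had 5 of 20, and Sox9, a factor of cartilage and of stem cells, had 541, 468 and 465 TPM. Smaller families gave 5 of 16 for T-box, 2 of 4 for TEAD and 3 of 4 for TCF and LEF genes. Stat3, the factor downstream of IL6-type cytokines, had 523 ± 51.4 TPM, Runx1 165 ± 14.7 TPM and Srf, which acts with actin-regulated cofactors, 146 ± 12.5 TPM. Order within the 20 highest factors was the same in every library for 10 of 19 neighbouring pairs, among them Fos above Junb and Junb above Atf3.

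Of 459 listed receptors and surface proteins, 201 had 10 TPM or more (43.8%, near the share of all genes). At 100 TPM or more there were 56 (12.2%), beside 6.74% of all genes. The 459 together took 3.58%, 3.60% and 3.51% of the TPM. After Sdc4, the receptor of the cytokine TWEAK, Tnfrsf12a, had 2998, 2762 and 2701 TPM, and then came Cd82. These 3 kept their order in every library with ranges apart. Other tetraspanins were high as well: Cd9 had 1093 ± 130.4 TPM, Cd63 1091 ± 47.0 TPM and Cd81 823 ± 59.3 TPM, and the order of Cd9 and Cd63 differed between libraries. Dag1, the dystroglycan that links laminin to the cytoskeleton, had 1061, 1016 and 813 TPM.

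Counts of receptors by type stand beside the 44.2% of all protein-coding genes present. Among G protein-coupled receptors, 35 of 105 listed genes reached 10 TPM. F2r, the thrombin receptor PAR1, led with 1249, 1238 and 1092 TPM, and S1pr3, a receptor of sphingosine 1-phosphate, had 512, 620.5 and 588 TPM. Of 23 chemokine receptors 5 were present. Ackr3, the atypical receptor that takes up CXCL12, had 872, 819 and 939 TPM, above Cxcr4 in every library. Of 55 receptor tyrosine kinases 28 were present, led by Fgfr4 with 551 ± 46.4 TPM and Fgfr1 with 466 ± 11.9 TPM. Of 26 integrins 8 were present. Gas1, a hedgehog co-receptor, had 369, 578 and 564 TPM with library 1 lowest. Tnfrsf1a, the widely used TNF receptor, had 476 ± 80.9 TPM, Bsg, the chaperone of lactate transporters, 445 ± 16.9 TPM and Chrnb1, the beta subunit of the muscle acetylcholine receptor, 432 ± 25.4 TPM.

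Of 550 listed secreted factors, 246 had 10 TPM or more (44.7%, again near the share of all genes). At 100 TPM or more there were 77 (14.0%), beside 6.74% of all genes. The 550 together took 6.73%, 7.09% and 6.84% of the TPM. Gal alone made up 12687 TPM, followed by Ccn1. Cxcl1, a chemokine that draws neutrophils, had 5114, 3909 and 3802 TPM, with library 1 highest. Of 34 listed chemokines 19 were present, beside 44.2% of all protein-coding genes. The monocyte chemokines Ccl7 and Ccl2 had 1140 ± 43.4 and 835 ± 222 TPM, and Ccl2 was again highest in library 1 at 1091 TPM. Nppc, the C-type natriuretic peptide, had 1192, 1316 and 1646 TPM. Ccn2, the connective tissue growth factor, had 1617, 1404 and 1194 TPM.

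Matrix genes formed the next group. Of 43 listed collagens 20 were present, near the 44.2% of all genes, and 8 had 100 TPM or more, beside 6.74% of all genes. Col3a1, a fibrillar collagen, led with 1066, 1641 and 1215 TPM, and Col4a1, of the basement membrane, had 712 ± 98.0 TPM. Of 11 laminin genes 8 were present, with Lamc1 first at 246 ± 45.4 TPM. Sparc, a collagen-binding matricellular protein, had 2046, 2468 and 1607 TPM, and Prelp, a leucine-rich proteoglycan, 733 ± 103 TPM. Serpinh1, the collagen chaperone kept in the endoplasmic reticulum and so not truly secreted, had 3239, 4162 and 3759 TPM. Ltbp4, which binds latent TGF-beta, had 773, 853 and 936 TPM.

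Proteases and their inhibitors stood side by side. Mmp2, a gelatinase, had 548, 694 and 807 TPM and Timp2, which binds it, had 751, 859 and 901 TPM. Adamts1, a proteoglycan-cleaving protease, had 806 ± 117 TPM and the cathepsin Ctsz 906 ± 88.5 TPM. Serping1, the inhibitor of the first complement component, had 1721 ± 111 TPM. Lgals1, the galectin, had 1239, 1224 and 721 TPM, with library 3 lowest. Of the 36 Wnt and hedgehog genes 2 reached 10 TPM and of 71 matricellular genes 46 did, beside 44.2% of all protein-coding genes. Among the 20 highest secreted factors 5 of 19 neighbouring pairs had the same order in all libraries and 5 had ranges apart. The counts were 9 and 4 for the receptors and 10 and 5 for the transcription factors, and the difference between classes was not tested.

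**Figure D3:**
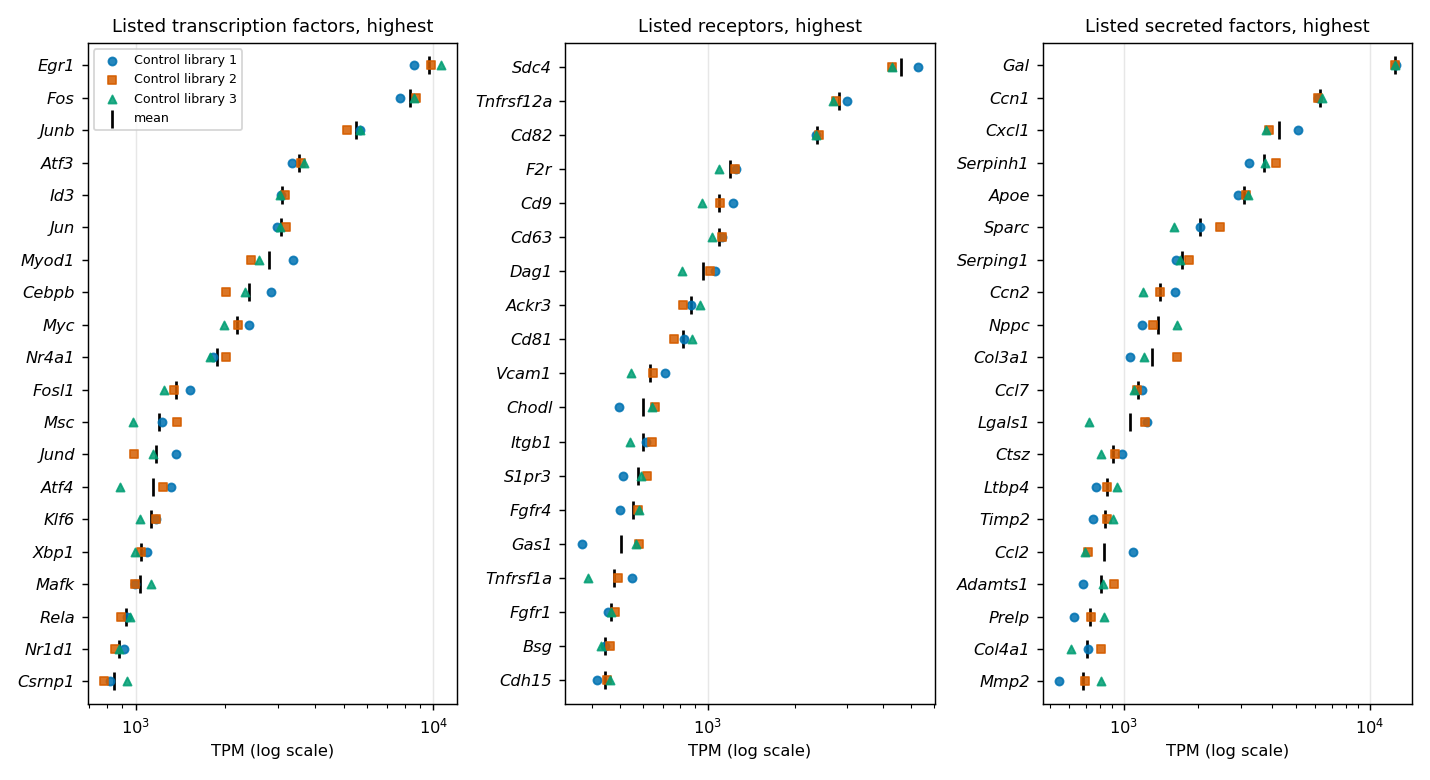
The highest genes of the listed transcription factors (20), receptors (19 of the first 20) and secreted factors (20), in TPM on log axes that differ between panels, with 1 symbol per Control library and a bar at the mean. Egr1, Sdc4 and Gal lead the panels, and most neighbouring genes have overlapping ranges.

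Receptor and ligand genes were set side by side for 15 pathways. In 11 of them at least 1 receptor and at least 1 ligand gene had 10 TPM or more. With 44.2% of all genes at that level, a pathway with several genes on each side can pass through 1 member of each. In the FGF and HGF pathways only receptors did. All 9 FGF genes listed there were under 10 TPM, the highest being Fgf2 with 7.73 ± 4.14 TPM, whereas Fgfr4 and Fgfr1 stood among the 20 highest receptors. Of the 24 genes with FGF names in the longer list of secreted factors, 4 reached 10 TPM, led by Fgf13, an FGF-like protein that stays inside the cell, with 50.3 ± 6.43 TPM. Hgf had 3.48, 6.82 and 10.1 TPM, against 61.3, 70.9 and 54.6 TPM for its receptor Met, and the ranges did not overlap. In the PDGF pathway and for CSF1 and KIT only ligands passed. Pdgfa, a mitogen of mesenchymal cells, had 34.7 ± 3.59 TPM while Pdgfra and Pdgfrb had 6.89 ± 2.35 and 5.11 ± 1.24 TPM. Csf1, a growth factor of macrophages, had 175 ± 11.5 TPM and its receptor Csf1r 4.57 ± 3.45 TPM.

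Within the Notch pathway, receptors outweighed ligands in number. Notch3 had 178, 195 and 220.4 TPM, Notch2 52.7 ± 8.76 TPM and Notch1 44.4 ± 6.00 TPM, and Notch4 had 0.891 ± 0.0301 TPM. Of 6 ligand genes, Jag1 with 70.8 ± 4.38 TPM and Dll1 with 44.5 ± 9.66 TPM were present. All 3 TGF-beta receptors and all 3 ligands were present, led by the co-receptor Tgfbr3 with 240.0 ± 24.7 TPM and Tgfb3 with 170 ± 23.3 TPM. In the BMP pathway 3 of 4 receptors and 3 of 5 ligands passed, and Bmp4 had 199.8 ± 19.7 TPM against 61.2 ± 11.5 TPM for Bmpr1a. Acvr2a, a receptor of activin and myostatin, had 35.5 ± 6.44 TPM, while Mstn, the gene of myostatin, had 0.234 ± 0.251 TPM.

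In the IL6 family the shared receptor subunit Il6st had 217 ± 12.1 TPM and Osmr, the oncostatin M receptor, 98.7 ± 8.63 TPM. The ligand Clcf1 had 283, 277 and 281 TPM, and Il6 itself 10.9, 24 and 25.2 TPM. For the EGF pathway, Egfr had 116 ± 23.4 TPM and Hbegf, one of its ligands, 97.2 ± 10.1 TPM. Vegfa, the angiogenic growth factor, had 339, 281 and 369.9 TPM, while the endothelial receptors Kdr and Flt1 had 9.41 ± 6.52 and 5.36 ± 1.55 TPM. The VEGF pathway counts among the 11 only through the co-receptor gene Nrp1, with 17.9 ± 3.90 TPM. The CXCL12 ligand gene had 25.2 ± 6.93 TPM, under both of its receptors. Igf1 and Igf1r had 29.5 ± 8.24 and 22.2 ± 3.57 TPM, and Igf2r, a clearance receptor, 71.9 ± 8.45 TPM. The TWEAK ligand gene Tnfsf12 had 19.2, 8.00 and 15.1 TPM, against 2820 TPM for its receptor. Of the exonic bases of Tnfsf12, 48.25% lie under another gene's exons, so its level is uncertain. Among the Wnt genes 4 of 10 frizzled receptors and 1 of 14 ligands passed, led by Fzd4 with 78.2 ± 16.4 TPM and Wnt4 with 17.6 ± 7.87 TPM.

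Gal was the opposite case to the FGF genes. Its receptors Galr1 and Galr2, looked up after the level of Gal was seen, had 1.04 ± 1.11 and 0.760 ± 0.426 TPM, under the receptor-gene background in each library. Galr3 was not analysed here. The receptor of Nppc, Npr2, also looked up afterwards, had 79.9 ± 6.75 TPM. Cxcr2, the receptor of Cxcl1, had 8.21, 4.88 and 2.96 TPM.

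**Figure D4:**
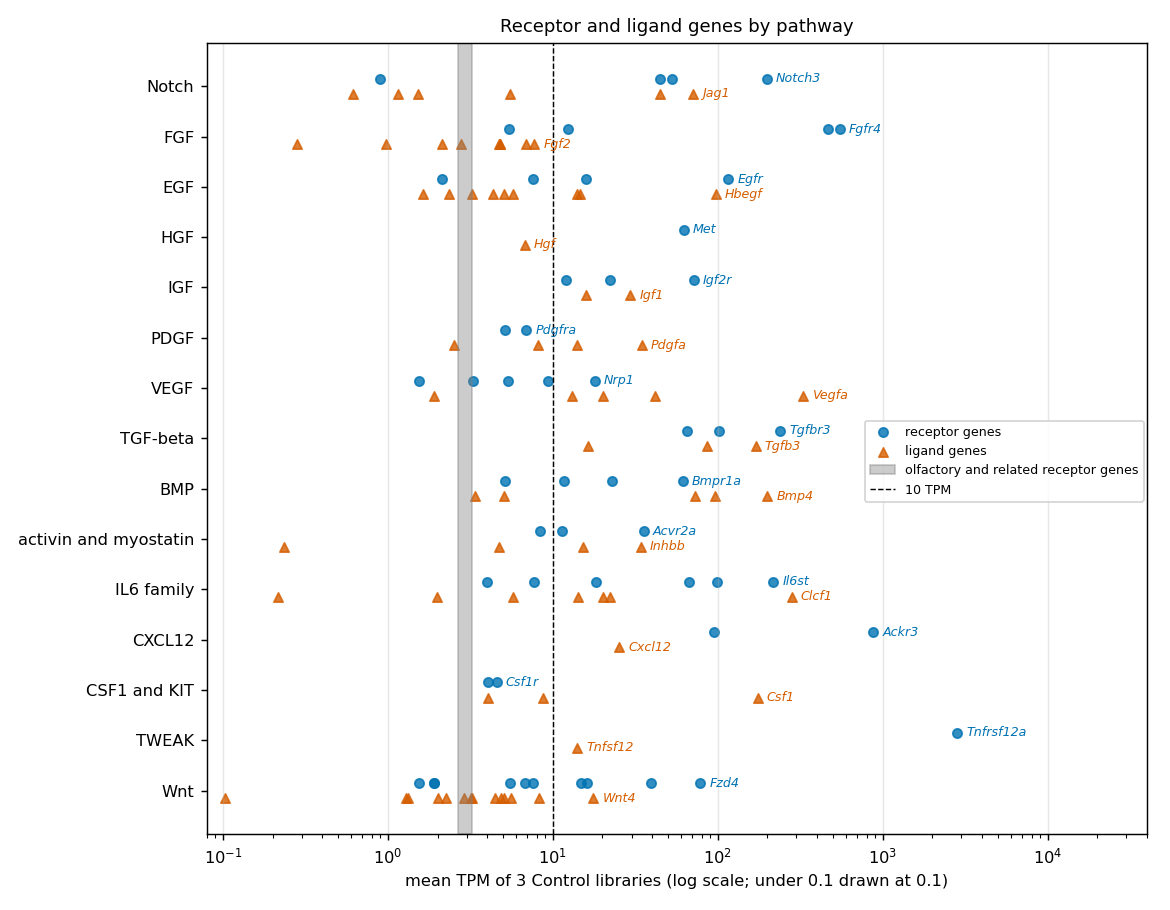
Mean TPM of 3 Control libraries, on a log axis, for receptor genes (circles) and ligand genes (triangles) of 15 pathways, with the highest of each side named. The grey band is the pooled level of olfactory and related receptor genes and the dashed line marks 10 TPM. None of the 9 FGF ligands drawn and no PDGF receptor lies to the right of the line.

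Of 15 listed genes of cell division, 10 had a mean of 10 TPM or more (66.7%, beside 44.2% of all protein-coding genes) and 5 had it in every library. None reached 100 TPM, and the median was 14.1 TPM. The highest was Pcna, the replication clamp, with 72.9, 84.4 and 81.7 TPM. The replication helicase genes Mcm5 and Mcm6 had 28.7 ± 5.59 and 27.0 ± 6.00 TPM, and Aurkb, a mitotic kinase, had 19.5 ± 6.30 TPM.

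Housekeeping genes include many with sequence shared between genes. Of 79 ribosomal protein genes 73 were present, beside 44.2% of all protein-coding genes. Rpl4 led with 1681 ± 64.1 TPM, followed by Rplp0 with 993 ± 99.9 TPM and, lower, Rpl8 with 963 ± 169 TPM. Of the ribosomal protein genes 19 share at least 50% of their 50-base words with another gene, and their levels are uncertain. Whether shared words lower these levels was not tested. Of 13 mitochondrial genes 7 were present, and 5 lay under the mean receptor-gene background. At least 50% of the 50-base words were shared for 7 of the 13, and the levels of those genes are uncertain. After mt-Cytb came mt-Nd1 with 2898 ± 209 TPM, mt-Co1 with 1985 ± 348 TPM and mt-Nd4 with 834 ± 39.4 TPM. No count was listed for mt-Co2, mt-Co3 or mt-Atp6, of whose words 100% are shared. Gapdh, looked up after its value was seen, had 38.9 ± 5.70 TPM. Of its words 27.2% are shared, and words nearly the same as another gene's were not counted, so its level is uncertain too. Aldoa, another glycolytic enzyme, had 1163 ± 269.5 TPM. Ldha, Pkm and Eno3 had 445 ± 26.8, 369 ± 4.40 and 363 ± 169.7 TPM.

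In the translation list 23 of 24 genes were present, led by Eef2 with 1629 ± 103 TPM, Eif5a with 1488 ± 106 TPM, Eef1a1 with 1174 ± 75.6 TPM and Eif1 with 1139 ± 29.9 TPM. All 36 cytoskeletal genes were present, and the counts of these lists stand beside 44.2% of all protein-coding genes. Tmsb4x, which sequesters actin monomers, had 2526 ± 249 TPM, Actb 2005 ± 29.9 TPM, the nuclear lamin gene Lmna 1927 ± 193 TPM and Tubb6, a tubulin, 1473, 1574 and 1561 TPM. For iron and redox, 24 of 26 genes were present. Next to Gpx3 and Mt1 stood Mt2 with 3836 ± 699 TPM, 73.5% of whose exonic bases lie under another gene, and Fth1, the ferritin heavy chain, with 2044 ± 198 TPM.

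Genes of mature muscle fibres moved with library 3. The 18 markers summed to 4119, 3584 and 8319 TPM. Of these markers 13 had 10 TPM or more, beside 44.2% of all protein-coding genes. Acta1, the skeletal actin, had 2392, 1920 and 4089 TPM, Tnnt3, a fast troponin, 214, 199 and 808 TPM, and Tnni2, its partner, 140.0, 146 and 433 TPM. Ckm, the muscle creatine kinase, had 525, 404 and 683 TPM and Atp2a1, the calcium pump of the sarcoplasmic reticulum, 375, 262 and 752 TPM. All 5 were highest in library 3. The myosin heavy chain gene Myh4 did not follow, with 53.8, 46.3 and 50.6 TPM. Myog, Mymk and Actc1, the cardiac actin of immature muscle with 235, 145 and 89.8 TPM, were lowest in that library. The part of fibre RNA in these levels was not tested.

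Of the 2960 genes at 50 TPM or more, the highest library was at least 2 times the lowest for 79, and the median ratio was 1.26. Of the 30 genes with the largest ratio, 22 were highest in library 3 and 9 were fibre markers. The matching shares of all 2960 genes were not counted, so these 2 counts only describe the 30 genes. The largest ratio, 21.2, belonged to Procr, the endothelial protein C receptor, with 9.32, 138 and 6.50 TPM, so library 2 alone was high. Next came Myl1, a fast myosin light chain, with 43.3, 77.0 and 321 TPM, the predicted model Gm17651 with 113, 30.6 and 19.3 TPM, and Tnfsf9, a TNF family ligand, with 20.4, 65.7 and 113 TPM. Myot, a Z-disc protein, Cox6a2, a muscle subunit of cytochrome oxidase, and Hspb6, a small heat shock protein, had 132, 152 and 136 TPM in library 3 against at most 32.7, 37.8 and 33.5 TPM in the others. Mymk, Myog and Tnnt3 complete the first 10.

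For cells that the gate excludes, 4 of 13 endothelial, 2 of 14 leukocyte and 0 of 6 erythroid markers had 10 TPM or more, beside 44.2% of all protein-coding genes. Their medians were 7.75, 5.65 and 1.56 TPM, and 3, 2 and 4 of them lay under the mean receptor-gene background. The 13 endothelial markers summed to 116, 171 and 169 TPM. Of these Tek, an angiopoietin receptor, made up 61.4, 82.0 and 74.5 TPM, while Cdh5 and Pecam1 had 3.57 ± 1.34 and 10.2 ± 2.38 TPM and Cldn5 had 0 in library 3. The 14 leukocyte markers summed to 73.5, 101 and 93.7 TPM, led by Cd68 with 14.7 ± 8.15 TPM, and Ptprc, the gene of CD45, had 7.50 ± 2.60 TPM. The 6 erythroid markers summed to 5.56, 10.1 and 16.3 TPM. Ly6a, which encodes Sca1, had 1.12 TPM in library 1 and 0 in the others.

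In the fibro-adipogenic list 6 of 11 markers had 10 TPM or more, and in the smooth muscle and pericyte list 6 of 10. The Schwann cell and tenocyte lists had 1 of 8 and 3 of 6, beside 44.2% of all protein-coding genes. At 100 TPM or more there were 4, 2, 1 and 0 in these lists, beside 6.74% of all genes. The larger sums came mainly from a few genes each. Fibro-adipogenic markers summed to 5442, 6456 and 5632 TPM, of which Gsn and Col3a1 made up nearly all, followed by Dpt with 245 ± 34.3 TPM and Col1a1 with 119.6 ± 44.2 TPM. Their defining gene Pdgfra was at 6.89 TPM and Pi16 at 1.70, 1.04 and 1.75 TPM. Smooth muscle and pericyte markers summed to 1014, 913 and 605 TPM through Acta2, with 699, 557 and 287 TPM, and Notch3, while Pdgfrb and Cspg4 had 5.11 and 4.38 TPM. Schwann cell markers summed to 459, 561 and 539 TPM, of which Pmp22 had 488 ± 48.3 TPM and Sox10 1.17 ± 0.0824 TPM. Tenocyte markers summed to 47.4, 54.4 and 73.1 TPM, led by Scx with 19.6 ± 5.10 TPM. The part of other cells in these sums was not tested.

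**Figure D5:**
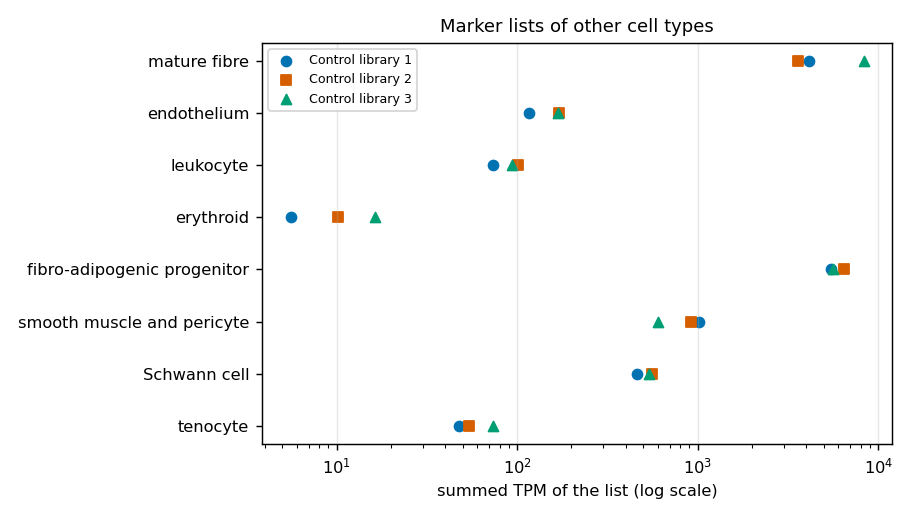
Summed TPM of 8 marker lists for other cell types, on a log axis, with 1 symbol per Control library. The mature fibre list is at 8319 TPM in library 3 against 4119 and 3584 TPM in libraries 1 and 2, and the erythroid list does not pass 16.3 TPM.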

How the data were processed

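The authors deposited raw counts per Ensembl gene for the second dataset. The SMART-Seq v4 kit made the cDNA and Nextera XT the libraries, per the labels' protocols. Such libraries carry no strand information. No role is given for the tools in the submitters' processing notes, which are HTSeq 0.6.1, STAR 2.5.0c, limma and DESeq2 1.20.0, nor for the build GRCm38. The 5 lines that name no gene were left out of the totals. Gene names, positions and lengths of exons were taken from GENCODE M21 (GRCm38), in which 49412 of 49671 identifiers were found. TPM was computed over 21811 protein-coding genes, and levels are the mean and SD of 3 libraries. No test was made, since no groups were compared.

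Lists of genes were written by hand, and members and lists were chosen with earlier results of these data known. Of the listed symbols, 4 (Clec7a, Cxcl11, Galr3 and Gpr56) matched no gene under that name. Named genes are the 20 most abundant overall and of each class, the first of each role, the receptor and ligand genes, the identity genes, the 4 highest of the other lists and the 10 genes of 50 TPM or more with the largest ratio between libraries. The text names a part of these (3 genes are not reported here) and the defining markers of other cells. Chosen outside the rule after their values were seen were Hsph1, Bag3, Hspb1, Calr, Hsp90b1, Pdia3, P4hb, Pdia6, Pdia4, Canx, Btg2, Ier2, Zfp36, Dusp1, Klf2, Egr3, Myf6, Actc1, Tnni2, Fgf13, Gapdh, Galr1, Galr2, Npr2, Cxcr2 and the mitochondrial genes with no count. Shared sequence was measured as the percentage of 50-base words of the longest transcript that occur in another gene: 64 of 1999 genes checked shared at least 50%. Promoter windows came from RefSeq (GRCm38.p6) for 15 of the 20 most abundant genes. Levels and shared words were tested on simulated data, the levels under the same length model that was used to recover them. The background check subtracted the known simulated signal, so its outcome was set in advance. It does not test the background estimate used here. The alternatives were transcript length, no length correction, nuclear genes only, edgeR 4.0.16 (TMM) and DESeq2 1.42.0 scaling, a filter of 10 counts in each library, background subtraction and leaving out each library, and, added after seeing the data, leaving out predicted gene models.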

Additional observations from a re-analysis of the deposited data

How the results depend on the processing

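Levels at 10 TPM or more were counted under 11 alternatives, 1 of them (predicted gene models left out) chosen after seeing the data. The counts of present genes, transcription factors, receptors and secreted factors stayed within 1.5 times of the values given, as did the overlap of the 20 most abundant genes, which was 15 to 20 genes. The share of the 20 most abundant genes was 16.4% with the longest transcript as length, 12.0% with no length correction (as a share of counts) and 15.6% with predicted models left out. The share of immediate early genes was 5.09%, 4.68% and 6.23% in the same settings and 6.13% with the even background subtracted. The share of chaperones was 6.32% with the longest transcript as length. Fibre markers took 0.534% of the TPM, 0.385% without library 3 and 0.595% or 0.622% without library 1 or 2, and 0.316% with no length correction (as a share of counts). The number of genes present was 9317 to 10034 with a library left out. Ranks of 380 genes, those the naming rule takes and the others named, moved by over 1.5 times for 146 with no length correction, 16 with the longest transcript, 14 without library 3, 3 without library 1 or without library 2, 2 of 377 with predicted models left out and 0 in the other settings, of which the filter of 10 counts left 329 genes with a rank and nuclear genes only 376. Procr moved to rank 10847 without library 2 and Myl1 to rank 2480 without library 3. With the longest transcript as length, Tnfrsf12a moved from rank 34 to rank 16. With the even background subtracted, 8520 genes had 10 TPM or more. Below about 10 TPM, levels are limited by the background, and 100 of 1482 olfactory and related receptor genes lie above that line. No paired analysis was possible because no groups were compared and no result comes from a test.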
